A study of Homo sapiens with 8 samples.

Results

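The genes described here are 7 metallothionein genes (MT1E, MT1F, MT1G, MT1H, MT1M, MT1X and MT2A), the zinc-sensing transcription factor MTF1 and the zinc exporter SLC30A1. They were taken by gene symbol from the annotation of an Affymetrix human array with 3′ probe sets, and make up 9 of the 11963 genes it names, with 14 of its 22277 probe sets. No probe set of the array named several metallothioneins at once. The array was hybridised with total RNA of 2 human cancer lines, the colorectal line Caco-2 and the gastric line HUG1N (HuG-1 in some labels). The 8 arrays fell into 4 groups of 2, a control and a treated group for each line, where the treatment was a short hairpin RNA (shRNA) that targets GATA6, a transcription factor of gut epithelium. The treatment text of the labels is the same for all 8 samples, controls included: it names infection with GATA6 shRNA and puromycin selection. The titles and descriptions call 4 of the samples controls, and the grouping rests on them, so what the controls were infected with is uncertain and so is what each shRNA minus control difference compares. How many shRNA sequences or clones were used and how long the selection ran are not stated. Nor do the labels tie the 2 arrays of a group to separate cultures, so the p-values rest on a spread between arrays that may be technical alone.

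Metallothioneins are small, cysteine-rich proteins that bind zinc and copper, hold cadmium and mercury, and buffer oxidants. Their genes are switched on by MTF1, which binds free zinc through its zinc fingers and then the metal response elements, short sequences in the promoters of its targets. SLC30A1, also called ZnT1, moves zinc out of the cell across the plasma membrane and is another classical MTF1 target. In gut epithelium metallothioneins are a main store of zinc and rise when zinc is plentiful. Glucocorticoids and oxidants also raise several of them.

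The 7 metallothionein genes lie on chromosome 16 in the order MT2A, MT1E, MT1M, MT1F, MT1G, MT1H and MT1X, with other family members between some of them, in a cluster of 16 metallothionein genes and pseudogenes in the annotation of GRCh38.p14. RefSeq promoter sequences of that build were at hand for 5 of the 9 genes, MT1H, MT1X, MT2A, MTF1 and SLC30A1. The 250 bases before the start were searched on both strands for the core of the metal response element, spelled TGCNCNC, with A or G at the first N and any base at the second. The 4 promoters that held a match are shown because MTF1 binds metal response elements, whose core these letters spell. Whether MTF1 binds these matches was not tested. They read 5′ to 3′ on the gene's strand, ending at the base before the start, and the matches on either strand are in capitals.
MT2A: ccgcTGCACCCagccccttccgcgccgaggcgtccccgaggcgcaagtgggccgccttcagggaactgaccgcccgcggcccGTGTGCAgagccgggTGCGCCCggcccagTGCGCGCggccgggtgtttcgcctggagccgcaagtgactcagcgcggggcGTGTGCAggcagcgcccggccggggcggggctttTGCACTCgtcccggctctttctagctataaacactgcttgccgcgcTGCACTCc
MT1H: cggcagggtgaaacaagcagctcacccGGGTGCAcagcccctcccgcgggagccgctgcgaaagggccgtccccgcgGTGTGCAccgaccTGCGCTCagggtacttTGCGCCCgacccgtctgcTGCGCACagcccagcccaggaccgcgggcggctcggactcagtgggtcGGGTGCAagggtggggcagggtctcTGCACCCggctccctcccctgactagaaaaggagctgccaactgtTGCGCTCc
MT1X: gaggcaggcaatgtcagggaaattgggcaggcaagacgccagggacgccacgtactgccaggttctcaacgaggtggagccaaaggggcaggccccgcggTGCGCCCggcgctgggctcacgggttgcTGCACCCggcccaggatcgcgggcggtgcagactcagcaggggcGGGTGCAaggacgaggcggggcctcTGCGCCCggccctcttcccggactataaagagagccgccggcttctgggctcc
SLC30A1: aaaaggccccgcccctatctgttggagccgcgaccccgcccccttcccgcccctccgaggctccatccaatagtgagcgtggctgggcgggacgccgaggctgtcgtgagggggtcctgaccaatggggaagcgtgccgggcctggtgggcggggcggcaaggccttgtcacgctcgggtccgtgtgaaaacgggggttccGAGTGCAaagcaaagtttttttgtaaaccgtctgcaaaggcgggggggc

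The MT1H promoter (GRCh38.p14, chr16:56669564-56669813, plus strand) held 8 matches and that of MT2A (chr16:56608334-56608583, plus strand) held 7. MT1X (chr16:56682220-56682469, plus strand) had 4 matches. SLC30A1 (chr1:211579162-211579411, minus strand) had 1 match, on the opposite strand, 49 to 43 bases before the start. The MTF1 promoter (chr1:37859593-37859842, minus strand) had 0. None of these matches overlapped another. Among 35116 promoters of the same length, 24.8% held at least 1 match, 0.370% held at least 4 and 0.0313% held at least 7. The 3 metallothionein promoters are thus dense in these letters compared with other promoters, while 1 match, as in SLC30A1, is common. A GATA motif, spelled NGATAN, with A or T at the first N and A or G at the second, and searched the same way, was found once, in SLC30A1, 236 to 231 bases before the start. It is present at least once in 22.3% of the 35116 promoters. A match of letters is a description and does not show that a factor binds.

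**Figure D1:**
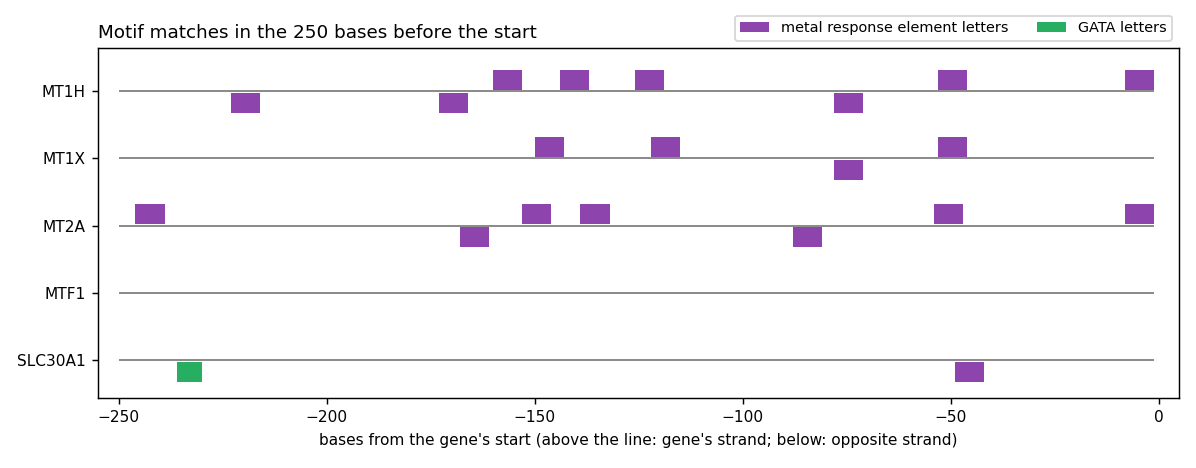
Places of the metal response element and GATA letters in the 250 bases before the start of the 5 genes with a promoter sequence; the x axis gives bases from the start, and marks above or below a gene's line are on its own or the opposite strand. MT1H has 8 metal response matches, MT2A 7, MT1X 4, SLC30A1 1 and MTF1 0, and the single GATA match lies in SLC30A1.

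The authors used GCRMA to turn probe intensities into log2 expression values, a method that subtracts background by probe base content and, as usually run, gives the arrays a common distribution of probe values. Every array shares a lowest value of 2.08. A probe set was tested where it exceeded log2 4 in at least 2 arrays, and 12758 probe sets, 12 of the 14 considered here, passed. Of these 12, 11 exceeded log2 4 in all 8 arrays. Tests used limma across all 12758 probe sets with Benjamini-Hochberg adjustment, and a probe set is said to rise, fall or be called where its adjusted p was under 0.05. Where no array of the dimmer group exceeded log2 4, the fold is a bound against that level, written as at least. The 9 tested metallothionein probe sets all belong to a class (marked x_at) that may hybridise with transcripts of related genes, so each may measure several family members. The gene named is the annotation's, and values of the 9 probe sets are not independent of one another.

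GATA6 itself fell little. Its shRNA cells held 74.9% of the control level in Caco-2 (log2 difference -0.42, SE 0.11, limma adjusted p = 0.0259) and 83.9% in HUG1N (-0.25, SE 0.11, limma adjusted p = 0.0956, not called), and where its probe set lies on the transcript relative to the shRNA is not known here. Across probe sets, r lay between 0.995 and 0.997 within groups, between 0.964 and 0.967 for shRNA against control arrays of one line, and between 0.731 and 0.774 for pairs that cross the lines. The 2 HUG1N shRNA arrays stood apart in 3 measures of quality. Their gap between the 3′ and 5′ probe sets of ACTB was 3.73 ± 0.06 (SD, n = 2) on the log2 scale, against 2.51 ± 0.23 in HUG1N control, 1.92 ± 0.02 in Caco-2 controls and 1.55 ± 0.13 in the Caco-2 shRNA group. The same gap for GAPDH was 0.63 ± 0.06 in them, against 0.41, 0.16 and 0.07 in the same order of groups. Their value for the spiked hybridisation control bioB was 4.86 ± 0.01, against 9.61 to 10.14 in the other groups, while the other hybridisation controls lay between 13.39 and 13.70 in every group. The part of these measures in the results was not tested, and since these arrays are the whole HUG1N shRNA group, no shRNA effect in HUG1N can be given without them.

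All 6 epithelial and all 6 intestinal epithelial markers exceeded log2 4, as did 2 of 8 fibroblast markers (COL1A1 and LUM), 1 of 4 endothelial markers (PECAM1) and 1 of the 6 immune markers with a probe set (CD14). These counts take a marker as over log2 4 where at least 1 of its probe sets passed the filter. The filter asks for at least 2 arrays over that level, from any group, so the counts do not hold for each line. CDX2 lay under log2 4 in every HUG1N array. Among the HUG1N arrays, FABP1 exceeded that level in control replicate 2 only. PECAM1 and CD14 exceeded it only in Caco-2 arrays, and LUM only in the Caco-2 shRNA arrays. Of the 7 probe sets of the epithelial markers, 4 rose in Caco-2 and 5 in HUG1N, and 0 fell. Over all probe sets tested, 17.8% rose and 17.3% fell in Caco-2, and 23.4% rose and 23.3% fell in HUG1N. The summed log2 level of the epithelial markers went from 79.4 and 79.6 in the controls to 85.0 and 85.2 with the shRNA in Caco-2, and from 79.0 and 79.4 to 82.3 and 82.5 in HUG1N. The keratin genes KRT8, KRT18 and KRT19 and the tight junction gene CLDN4 rose in both lines, KRT19 by 1.56 in Caco-2 and 1.46 in HUG1N. In probe set 201131_s_at the cadherin gene CDH1 lay lower with the shRNA in both lines and was not called. It went from 14.03 and 14.07 to 13.85 and 13.89 in Caco-2, and from 12.62 and 12.33 to 12.26 and 12.13 in HUG1N. Its other probe set, 201130_s_at, read 4.96 and 5.30 in control and 5.06 and 5.33 in shRNA arrays of Caco-2, and under log2 4 throughout HUG1N. Of the 6 intestinal probe sets 2 fell in Caco-2, those of the cadherin gene CDH17 (-0.74) and of CDX2 (-0.62), where 17.3% of all probe sets fell. In HUG1N 2 rose, those of the keratin gene KRT20 (4.23) and the villin gene VIL1 (1.15), and 2 fell, those of CDX1 (-1.59) and of the fatty acid binding protein gene FABP1, by at least 1.22-fold. The shares of all probe sets in HUG1N were 23.4% and 23.3%. The summed intestinal level went from 54.2 and 53.8 to 51.9 and 52.0 in Caco-2, and from 36.6 and 36.5 to 39.3 and 37.6 in HUG1N. PECAM1 fell by 0.99 in Caco-2 and CD14 was called in neither line. LUM, a proteoglycan of fibroblasts, rose at least 11.6-fold with the shRNA in Caco-2, and the summed log2 level of the 8 fibroblast markers was 24.43 and 25.01 in the Caco-2 shRNA arrays against 20.49 and 20.57 in the Caco-2 controls and 19.04 to 19.66 in HUG1N. LUM alone gives nearly the whole of that rise, since its log2 difference was 4.11, and COL1A1 was not called in either line (0.18 in Caco-2 and 0.21 in HUG1N). COL1A2, COL3A1, DCN, PDGFRB, THY1 and FAP had no probe set over log2 4 in 2 arrays, and the part of these marker changes in the results was not tested. In bulk RNA, a change in the share of cells that express a gene and a change in RNA per cell cannot be told apart.

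In the control cells, the metallothioneins were far higher in HUG1N than in Caco-2. MT2A, the most widely expressed human metallothionein, read 7.60 and 7.85 in the 2 Caco-2 control arrays and 11.77 and 11.52 in the HUG1N control arrays. The gap was 15.1-fold (log2 difference 3.92, SE 0.21, limma adjusted p = 7.82e-06). MT1X, a widely expressed MT1 gene, read 4.30 and 4.18 against 10.60 and 10.35 in probe set 204326_x_at, a 75.3-fold gap (6.23, SE 0.13, limma adjusted p = 2.08e-07). Its second probe set, 208581_x_at, gave 34.7-fold (5.12, SE 0.25, limma adjusted p = 5.18e-06). The gap was widest for MT1E in probe set 212859_x_at, which read 3.40 and 2.28 in Caco-2 control and 11.00 and 10.82 in HUG1N control arrays, at least 120-fold (limma adjusted p = 1.47e-05). It was smallest for MT1F in probe set 213629_x_at, at 2.76-fold (1.47, SE 0.25, limma adjusted p = 0.00198). Caco-2 control replicate 2 held there a value that recurs exactly in both HUG1N shRNA arrays, so this gap may not reflect a measured level.

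All 9 metallothionein probe sets tested were higher in the HUG1N controls, with no overlap between the arrays. Over all 12758 probe sets, 76.0% were called in this comparison, 36.4% as higher in HUG1N, and 89.7% did not overlap between the 2 control groups. A call between lines is therefore the common case. The median log2 difference was 3.98 over the 9 metallothionein probe sets and -0.03 over all probe sets tested. Without regard to sign, the medians were 3.98 and 0.86.

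In HUG1N, the cells given the GATA6 shRNA had much less metallothionein RNA than their controls. MT2A fell from 11.77 and 11.52 in the control arrays to 9.69 and 9.79 in the shRNA arrays. The shRNA cells kept 26.7% of the control level (95% interval 18.8 to 37.9%, log2 difference -1.91, SE 0.21, limma adjusted p = 9.54e-04). MT1X fell from 10.60 and 10.35 to 8.16 and 8.35 (204326_x_at), which left 21.4% (-2.22, SE 0.13, limma adjusted p = 1.46e-04). Its second probe set, 208581_x_at, fell from 10.90 and 10.40 to 8.43 and 8.89, which left 25.2% (-1.99, SE 0.25, limma adjusted p = 0.00148). Both readings of MT1X therefore put the shRNA cells near the same share of the control level, and no shRNA array reached a control array.

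The deepest fall among the metallothioneins was that of MT1G, from 8.99 and 8.67 to 6.16 and 6.48 (204745_x_at), leaving 17.5% (-2.51, SE 0.21, limma adjusted p = 3.92e-04). MT1H, its neighbour on the chromosome, fell from 8.53 and 8.32 to 5.71 and 6.68, leaving 21.3% (-2.23, SE 0.29, limma adjusted p = 0.00187). The 2 shRNA arrays of MT1H lay further apart (SD 0.68) than those of the other tested metallothioneins. Even the higher of them stayed below both controls.

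MT1F fell in both of its probe sets. In 217165_x_at the arrays went from 9.41 and 9.04 to 7.46 and 7.72, leaving 32.2% (-1.64, SE 0.17, limma adjusted p = 8.80e-04). In 213629_x_at they went from 8.83 and 8.61 to 7.29 and 7.29, leaving 36.9% (-1.44, SE 0.25, limma adjusted p = 0.00535), the smallest fall of the family. Both of these shRNA arrays held exactly the value of Caco-2 control replicate 2, 7.285050029, so their SD was 0. Caco-2 control replicate 1 read 7.23 and Caco-2 shRNA replicate 2 read 7.07, lower still. Why the value recurs was not tested, so this fall and its rank may not reflect a measured level. MT1E also fell in both readings. In 216336_x_at it went from 8.35 and 8.22 to 6.51 and 6.78, leaving 32.1% (-1.64, SE 0.13, limma adjusted p = 3.63e-04).

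The second MT1E probe set, 212859_x_at, fell from 11.00 and 10.82 to 9.14 and 9.0, leaving 27.9% (-1.84, SE 0.49, limma adjusted p = 0.0244). Its arrays within HUG1N agree closely, with SDs of 0.10 and 0.13. The SE is large because it pools all 4 groups, and the Caco-2 arrays of this probe set, near the lowest value, had SDs of 0.79 and 0.90. The call was lost when any 1 of the 4 HUG1N arrays was left out (limma adjusted p = 0.0775 to 0.0997) and when no filter was applied (limma adjusted p = 0.105).

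**Figure D2:**
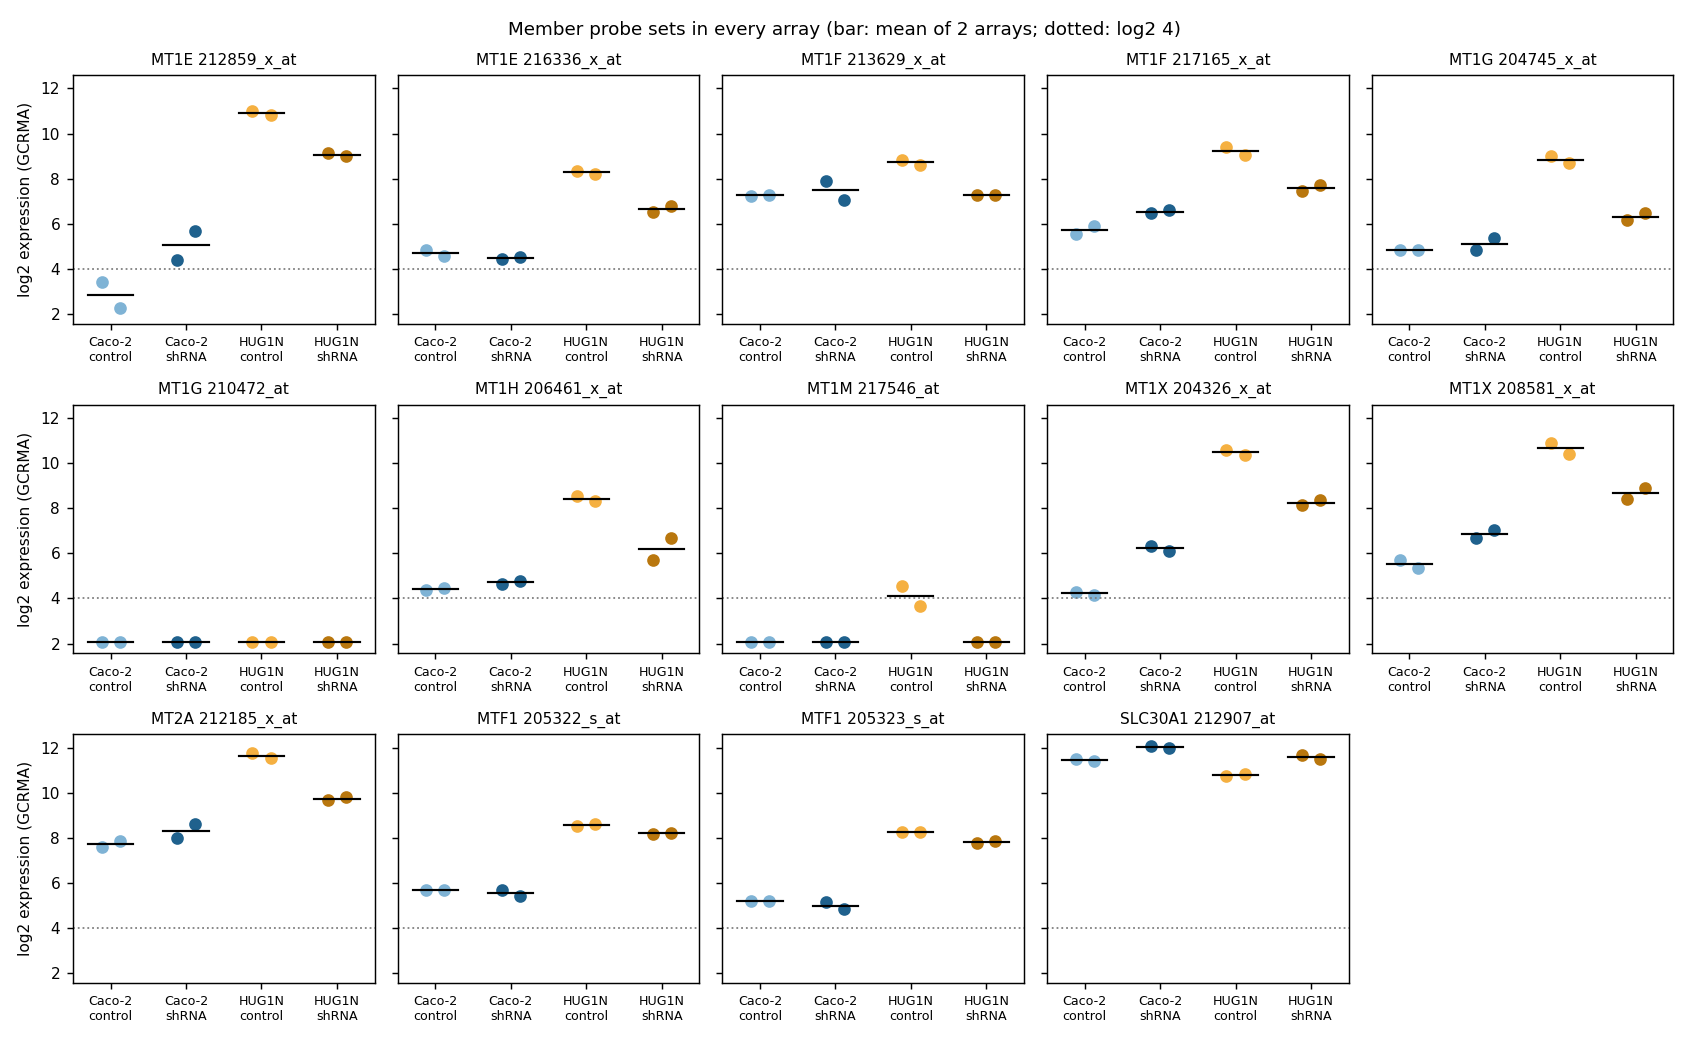
Log2 expression (y axis) of each of the 14 probe sets in the 8 arrays, with the 4 groups along the x axis; points are arrays, bars are means of 2 arrays and the dotted line is log2 4. In all 9 tested metallothionein probe sets the HUG1N control arrays are the highest and the HUG1N shRNA arrays lie below them, while SLC30A1 is higher in the shRNA arrays of both lines.

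All 9 tested metallothionein probe sets thus fell in HUG1N, to between 17.5 and 36.9% of the control level, and their arrays did not overlap in any of the 9. Of all 12758 probe sets, 46.6% were called in HUG1N, 23.3% as lower, and 73.3% did not overlap. The median log2 difference was -1.91 over the 9 metallothionein probe sets and 0.00 over all probe sets tested, and the medians without regard to sign were 1.91 and 0.34.

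In Caco-2, the same shRNA comparison called no metallothionein as lower, and 3 of the 6 metallothionein genes tested rose in at least 1 probe set. MT1X rose in both. Its arrays went from 4.30 and 4.18 to 6.33 and 6.11 (204326_x_at), a 3.94-fold rise (log2 difference 1.98, SE 0.13, limma adjusted p = 1.89e-04). In 208581_x_at they went from 5.70 and 5.36 to 6.69 and 7.03, or 2.51-fold (1.33, SE 0.25, limma adjusted p = 0.0087). Both shRNA arrays of MT1X lay above both controls in each probe set, at levels still well under those of HUG1N.

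MT1F rose 1.76-fold in 217165_x_at, from 5.56 and 5.89 to 6.48 and 6.59 (0.81, SE 0.17, limma adjusted p = 0.0146). In its other probe set, 213629_x_at, the control arrays read 7.23 and 7.29 and the shRNA arrays 7.90 and 7.07, so the groups overlapped and the difference was not called (0.23, SE 0.25, limma adjusted p = 0.533). The 2 probe sets of MT1F therefore do not give the same call. MT1E rose in 212859_x_at from 3.40 and 2.28 to 4.40 and 5.68, at least 2.05-fold (limma adjusted p = 0.0174). Its other probe set, 216336_x_at, had control values of 4.84 and 4.59 and shRNA values of 4.46 and 4.55, a difference of -0.21 (SE 0.13, limma adjusted p = 0.262) with an interval of -0.53 to 0.11. The 2 readings of MT1E also part.

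MT2A had Caco-2 control values of 7.60 and 7.85 and shRNA values of 8.01 and 8.60. Both shRNA arrays lay above both controls, but the difference of 0.58 (SE 0.21, 95% interval 0.07 to 1.09) was not called (limma adjusted p = 0.0762). MT1G read 4.86 and 4.85 in control and 4.86 and 5.38 in shRNA arrays (0.26, SE 0.21, interval -0.24 to 0.77, limma adjusted p = 0.374). Its Caco-2 control replicate 1 and shRNA replicate 1 held exactly the same value, 4.857196732, so this difference may not reflect measured levels. Why that value recurs was not tested. MT1H read 4.37 and 4.48 in control and 4.65 and 4.79 in shRNA arrays (0.29, SE 0.29, interval -0.42 to 1.01, limma adjusted p = 0.49). The intervals of MT1G and MT1H allow changes in either direction.

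Of the 9 metallothionein probe sets, 4 were called as higher in Caco-2 and 0 as lower, and 7 did not overlap between the groups. Over all probe sets tested 17.8% were called as higher, 35.1% were called in either direction and 72.4% did not overlap, so the share without overlap is near that of the array as a whole. The median log2 difference was 0.58 for the 9 and -0.01 for all probe sets tested, and without regard to sign 0.58 and 0.26. With SLC30A1, 5 of the 12 probe sets of the 9 genes were called. That count was 3 without Caco-2 control replicate 2, when MT1E 212859_x_at (1.64, limma adjusted p = 0.083) and MT1X 208581_x_at (1.16, limma adjusted p = 0.0554) lost their calls. It was also 3 without Caco-2 shRNA replicate 2, when both MT1X 208581_x_at (1.16, limma adjusted p = 0.0518) and the MT1E set (1.56, limma adjusted p = 0.065) as well as MT1F 217165_x_at (0.76, limma adjusted p = 0.0735) were lost while MT1F 213629_x_at was gained (0.65, limma adjusted p = 0.0191). Leaving out Caco-2 control replicate 1 ended the call of MT1F 217165_x_at (0.65, limma adjusted p = 0.0786), and so did leaving out Caco-2 shRNA replicate 1 (0.87, limma adjusted p = 0.0541). In that last fit MT2A passed (0.87, limma adjusted p = 0.0202). The call of MT1X 204326_x_at was kept in each of these fits.

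**Figure D3:**
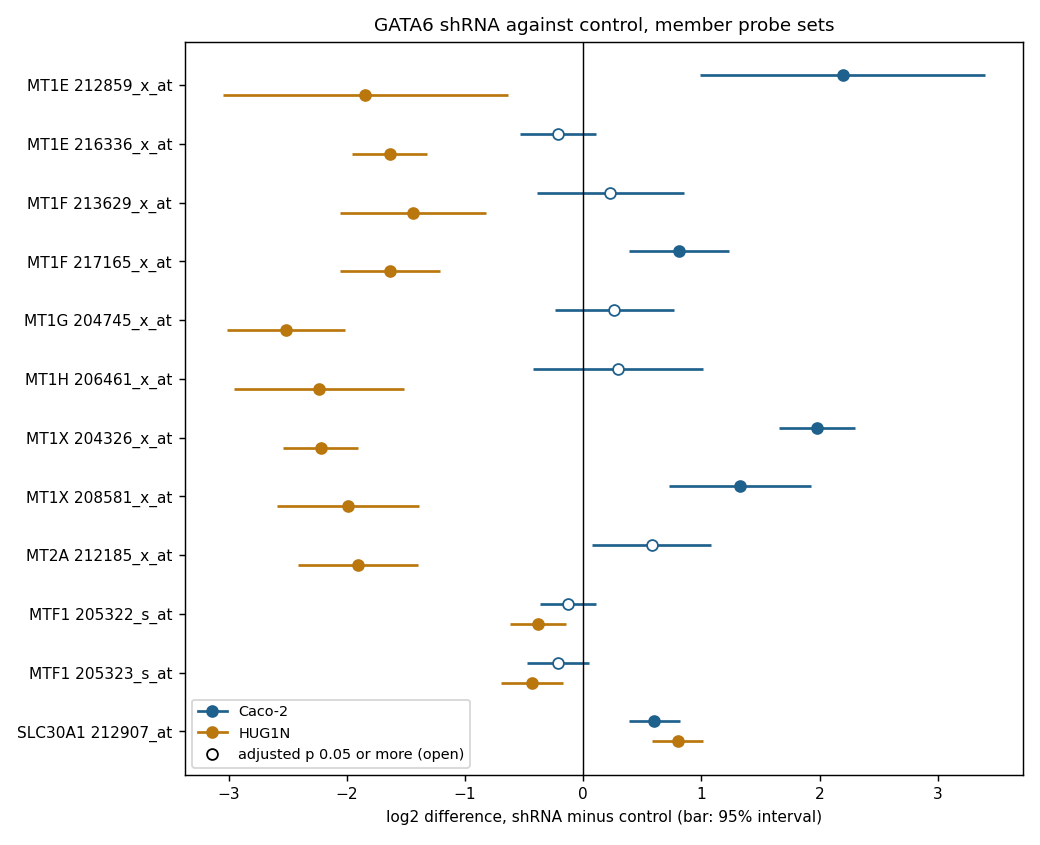
Log2 difference, shRNA minus control, of each tested probe set (x axis) in Caco-2 and in HUG1N, with bars for the 95% interval of the limma fit. The 9 metallothionein probe sets lie between -1.44 and -2.51 in HUG1N and between -0.21 and 2.20 in Caco-2, and SLC30A1 lies above 0 in both lines.

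The difference between the 2 shRNA effects was tested directly, as the HUG1N effect minus the Caco-2 effect. It was negative and called for all 9 tested metallothionein probe sets, against 21.5% of all probe sets called in that direction, 20.9% in the other and 42.4% in either. It was widest for MT1X 204326_x_at, at -4.20 (SE 0.19, limma adjusted p = 5.68e-05), and MT1E 212859_x_at, at -4.04 (SE 0.70, limma adjusted p = 0.00594). It was smallest for MT1E 216336_x_at, at -1.42 (SE 0.19, limma adjusted p = 0.00228), and MT1F 213629_x_at, at -1.67 (SE 0.36, limma adjusted p = 0.0127). The other 5 lay between -2.45 and -3.31. The median over the 9 was -2.53, beside 0.00 over all probe sets tested, and without regard to sign 2.53 beside 0.44.

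The 4 groups kept much the same order from one metallothionein to the next. HUG1N control was the highest group in 9 of 9 probe sets, and in 7 of 9 the order was HUG1N control, HUG1N shRNA, Caco-2 shRNA, Caco-2 control. The exceptions were MT1E 216336_x_at, where Caco-2 control lay above Caco-2 shRNA, and MT1F 213629_x_at, where the arrays of Caco-2 shRNA, HUG1N shRNA and Caco-2 control overlapped. In MT1G the 2 Caco-2 groups overlapped as well. The gap between HUG1N and Caco-2 was smaller among the shRNA groups than among the controls in 9 of 9. Its median was 3.98 (range 1.47 to 8.07) without the shRNA and 1.48 (range -0.20 to 4.03) with it. For MT2A the ratio of HUG1N to Caco-2 went from 15.1 to 2.70, and for MT1X 204326_x_at from 75.3 to 4.10. This narrowing is the same arithmetic as the difference between the shRNA effects, since it uses the same 8 arrays. How often other probe sets keep this order or narrow in this way was not counted, and the 9 are not independent.

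**Figure D4:**
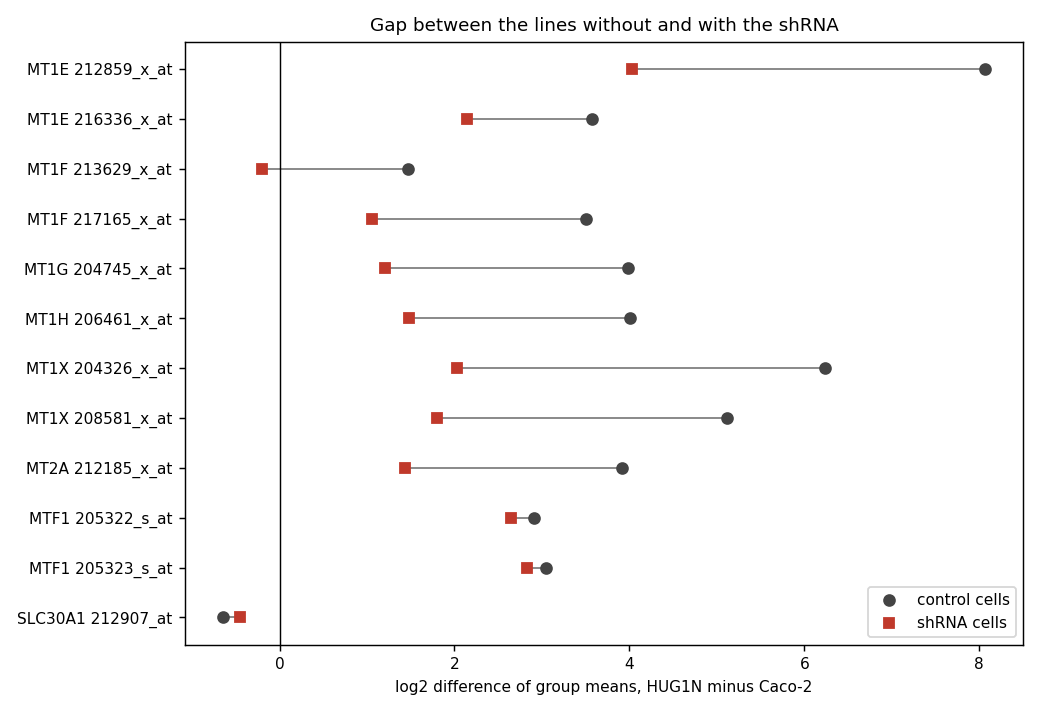
Log2 difference of group means, HUG1N minus Caco-2 (x axis), for each tested probe set, in the control groups and in the shRNA groups. The 9 metallothionein probe sets run from 1.47 to 8.07 in the controls and from -0.20 to 4.03 with the shRNA, whereas the MTF1 gaps move from 2.90 and 3.05 to 2.65 and 2.83.

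The other 2 metallothionein probe sets gave almost no signal. MT1M (217546_at) read 4.56 and 3.68 in the HUG1N control arrays and the lowest value, 2.08, in the other 6, so 1 array exceeded log2 4 and it was not tested. MT1G had a second probe set, 210472_at, that stood at 2.08 in all 8 arrays. The same gene exceeded log2 4 in all 8 arrays in its x_at probe set. The probe sets of MT1G thus differ in whether they register a signal at all. Of 12 further metallothionein genes and pseudogenes looked up, 3 had a probe set and 1 was tested, MT1HL1, a metallothionein 1H-like gene. It read 9.24 and 8.98 in HUG1N control and 7.32 and 7.77 in HUG1N shRNA arrays, a fall of 1.56 (SE 0.43, limma adjusted p = 0.0263), and its Caco-2 difference of 0.76 (SE 0.43) was not called (limma adjusted p = 0.221).

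MTF1, the factor that reads zinc and drives these genes, was also higher in HUG1N, and it moved little with the shRNA. Probe set 205322_s_at read 5.68 and 5.67 in Caco-2 control and 8.53 and 8.62 in HUG1N control arrays, a 7.48-fold gap (log2 difference 2.90, SE 0.10, limma adjusted p = 1.24e-06). Probe set 205323_s_at read 5.20 and 5.22 against 8.26 and 8.26, or 8.29-fold (3.05, SE 0.11, limma adjusted p = 1.53e-06). The arrays of the 2 lines lay far apart in both readings.

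With the shRNA in HUG1N, MTF1 fell to 8.18 and 8.21 in 205322_s_at, 76.7% of the control level (-0.38, SE 0.10, 95% interval 65.1 to 90.4%, limma adjusted p = 0.0202). In 205323_s_at it fell to 7.79 and 7.87, 74.1% (-0.43, SE 0.11, interval 61.8 to 88.9%, limma adjusted p = 0.0188). These falls are smaller than those of the metallothioneins, whose shRNA cells held 36.9% of the control level or less. The calls rest on few arrays. That of 205322_s_at was lost without HUG1N control replicate 2 (-0.34, limma adjusted p = 0.0896), shRNA replicate 1 (-0.37, limma adjusted p = 0.0755) or shRNA replicate 2 (-0.40, limma adjusted p = 0.0593). That of 205323_s_at was lost without HUG1N control replicate 1 (limma adjusted p = 0.0712), control replicate 2 (limma adjusted p = 0.0679) or shRNA replicate 1 (-0.39, limma adjusted p = 0.0798), and with no filter (limma adjusted p = 0.0535).

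In Caco-2 the MTF1 shRNA arrays read 5.67 and 5.42 in 205322_s_at, a difference of -0.13 (SE 0.10, interval -0.37 to 0.11, limma adjusted p = 0.351). They read 5.14 and 4.84 in 205323_s_at, a difference of -0.22 (SE 0.11, interval -0.48 to 0.05, limma adjusted p = 0.176), which passed only without Caco-2 shRNA replicate 1 (-0.36, limma adjusted p = 0.036). Both shRNA arrays lay below both controls in each probe set, by small amounts. The effects in the 2 lines were not shown to differ: HUG1N minus Caco-2 gave -0.25 (interval -0.59 to 0.08, limma adjusted p = 0.187) and -0.22 (interval -0.59 to 0.15, limma adjusted p = 0.292). These intervals do not include the differences between the lines seen for the metallothioneins, of which the smallest was -1.42.

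SLC30A1, the zinc exporter of the plasma membrane, rose with the shRNA in both lines. In Caco-2 it went from 11.49 and 11.39 to 12.09 and 11.99, a 1.52-fold rise (log2 difference 0.60, SE 0.09, 95% interval 0.38 to 0.82, limma adjusted p = 0.00385). In HUG1N it went from 10.74 and 10.84 to 11.66 and 11.51, a 1.74-fold rise (0.80, SE 0.09, interval 0.58 to 1.02, limma adjusted p = 0.00105). All shRNA arrays lay above all control arrays of their line. The 2 effects were not shown to differ (0.20, SE 0.13, interval -0.11 to 0.50, limma adjusted p = 0.256).

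In the HUG1N shRNA cells, SLC30A1 thus rose while every tested metallothionein fell, and it was the 1 probe set of the 12 called as higher there, where 23.4% of all probe sets were. Its level in the control cells also ran the other way. HUG1N control held 63.8% of the Caco-2 control level (-0.65, SE 0.09, limma adjusted p = 6.82e-04), and it was the 1 probe set of the 12 called as lower in HUG1N control, where 39.6% of all were. The order of its groups was Caco-2 shRNA, HUG1N shRNA, Caco-2 control and HUG1N control, with no overlap between neighbours, and the step between HUG1N shRNA and Caco-2 control was 0.15. Over the 8 arrays its correlation with the mean metallothionein profile was -0.72, whereas those of the MTF1 probe sets were both 0.92. These correlations describe 4 groups of 2 arrays that share the lines and the treatment.

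Other zinc transporters were taken from a list of the exporter family SLC30 and the importer family SLC39. Of 4 tested probe sets of the other exporters, 0 rose and 1 fell in Caco-2, and 1 rose and 0 fell in HUG1N, against backgrounds of 17.8% and 17.3% in Caco-2 and 23.4% and 23.3% in HUG1N. SLC30A10, which exports manganese, fell in Caco-2 from 5.11 and 5.73 to 2.11 and 2.35, at least 2.67-fold (limma adjusted p = 1.52e-04), and read 2.08 in all 4 HUG1N arrays. SLC30A9, a mitochondrial member of the family, rose in HUG1N from 8.75 and 8.64 to 9.81 and 9.85 (1.14, SE 0.07, limma adjusted p = 1.86e-04), while its Caco-2 difference was -0.13 (limma adjusted p = 0.219). Neither probe set of SLC30A5, which loads zinc into the secretory pathway, was called.

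Of 7 tested importer probe sets, 3 rose and 1 fell in Caco-2, and 3 rose and 0 fell in HUG1N, against 17.8% higher and 17.3% lower over all probe sets tested in Caco-2 and 23.4% and 23.3% in HUG1N. SLC39A6, a zinc importer also called LIV-1, rose in both lines, as SLC30A1 did. Its probe set 202088_at went from 10.77 and 10.80 to 11.77 and 11.86 in Caco-2 (1.03, SE 0.07, limma adjusted p = 2.40e-04) and from 10.71 and 10.60 to 11.93 and 11.91 in HUG1N (1.27, SE 0.07, limma adjusted p = 1.30e-04). Its second probe set, 202089_s_at, rose by 0.90 in Caco-2 and by 2.06 in HUG1N. SLC39A1, an importer of the plasma membrane, rose by 0.58 in Caco-2 (SE 0.12, limma adjusted p = 0.0132), where SLC39A14, which carries zinc, iron and manganese, fell by 0.56 (SE 0.10, limma adjusted p = 0.00693). SLC39A7, which releases zinc from the endoplasmic reticulum, rose by 0.61 in HUG1N (SE 0.11, limma adjusted p = 0.00562).

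**Figure D5:**
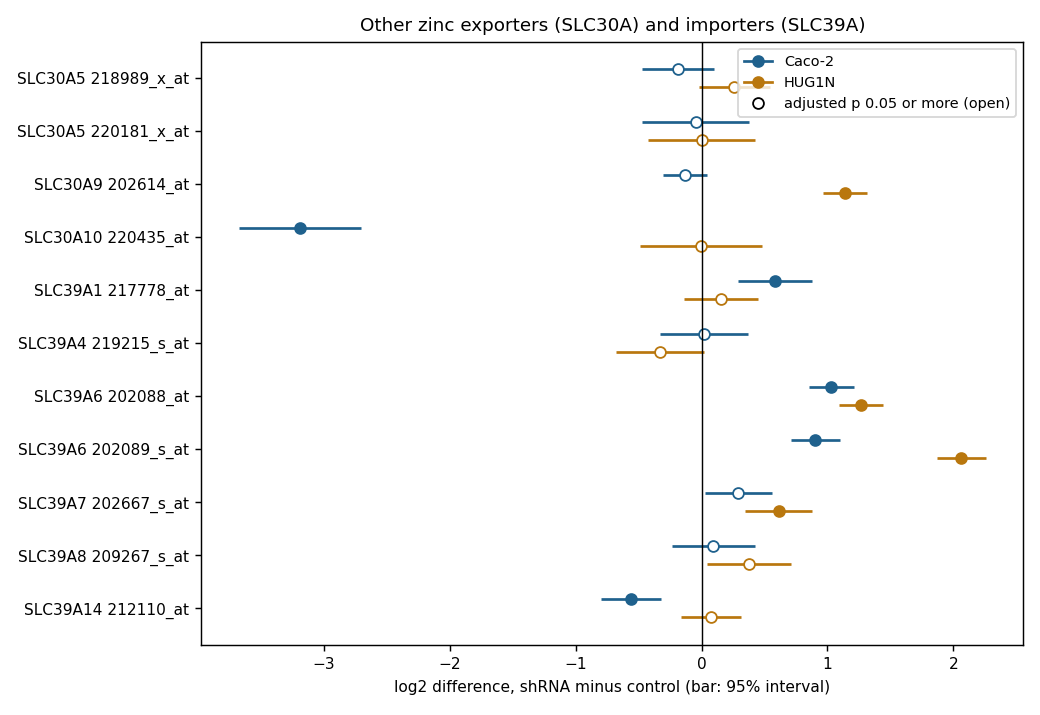
Log2 difference, shRNA minus control (x axis), of the tested zinc exporter and importer probe sets in Caco-2 and in HUG1N, with bars for the 95% interval of the limma fit. SLC39A6 lies above 0 in both lines in both of its probe sets, and SLC30A10 is below 0 in Caco-2, where its shRNA arrays had no value over log2 4.

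Copper handling genes, whose metal the metallothioneins also bind, had 12 tested probe sets, of which 0 rose and 4 fell in Caco-2 and 2 rose and 2 fell in HUG1N. Over all probe sets tested, 17.8% rose and 17.3% fell in Caco-2, and 23.4% rose and 23.3% fell in HUG1N. COX11, a copper chaperone of cytochrome oxidase, accounted for 3 of the 4 falls in Caco-2, with -0.82 (SE 0.09, limma adjusted p = 0.00128) in 211727_s_at. The other fall was that of SLC31A1, the main copper importer, by 0.50 (SE 0.11, limma adjusted p = 0.0153). In HUG1N, ATP7B, a copper pump, rose by 0.98 (SE 0.11, limma adjusted p = 0.00109). The related pump ATP7A fell by 1.34 in 1 of its 2 tested probe sets (SE 0.22, limma adjusted p = 0.00415) and not in the other (0.22, limma adjusted p = 0.234).

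Genes of the response to metals and oxidants had 16 tested probe sets, 7 of which rose and 2 of which fell in Caco-2, and 8 of which rose and 5 of which fell in HUG1N. The shares over all probe sets tested were 17.8% and 17.3% in Caco-2 and 23.4% and 23.3% in HUG1N. HMOX1, the heme-degrading enzyme that metals and oxidants induce, rose in Caco-2 and fell in HUG1N, as MT1X did. It rose by 0.54 in Caco-2 (SE 0.11, limma adjusted p = 0.011), and fell in HUG1N from 5.32 and 5.56 to 3.02 and 3.07, at least 2.71-fold (limma adjusted p = 7.07e-05). HMOX1 gave 1 of the 5 falls of the list in HUG1N, and the rest were of genes not named here. The other genes named here rose in HUG1N. GCLC, the first enzyme of glutathione synthesis, rose by 0.88 in 202922_at (SE 0.07, limma adjusted p = 3.80e-04), and NQO1, a quinone reductase, by 0.98 in 201468_s_at (SE 0.08, limma adjusted p = 3.84e-04). SLC7A11, the cystine importer, rose in both lines, in 217678_at by 1.47 in Caco-2 (SE 0.07, limma adjusted p = 5.66e-05) and by 0.36 in HUG1N (SE 0.07, limma adjusted p = 0.0082).

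Genes of the glucocorticoid response had 10 tested probe sets, of which 4 rose and 1 fell in Caco-2 and 1 rose and 3 fell in HUG1N, beside 17.8% and 17.3% of all probe sets in Caco-2 and 23.4% and 23.3% in HUG1N. NR3C1, the glucocorticoid receptor, accounted for 3 of the 4 rises in Caco-2, by 0.57 to 0.71. The phosphatase gene DUSP1 gave the other, by 1.21 (SE 0.07, limma adjusted p = 1.36e-04). In HUG1N, KLF9, a transcription factor that glucocorticoids induce, fell by 2.00 (SE 0.23, limma adjusted p = 0.0012) and 1.55 (SE 0.22, limma adjusted p = 0.00222) in its 2 tested probe sets, and NR3C1 fell by 0.41 in 1 of its 4 tested probe sets (SE 0.12, limma adjusted p = 0.0318). A further KLF9 probe set, 203541_s_at, read 2.08 in every array and was not tested. CEBPD, an early glucocorticoid target, had probe sets that parted: 203973_s_at fell by 0.66 in Caco-2 (SE 0.12, limma adjusted p = 0.00727), and 213006_at, which read 2.08 in the other 6 arrays, rose in HUG1N to 4.68, at least 1.61-fold (limma adjusted p = 1.78e-05).

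Among genes outside the family, the 5 whose probe sets most resembled the mean of the 9 centred metallothionein profiles over the 8 arrays were RBCK1 (r = 0.998), TRAF3IP2 (r = 0.998), EIF1 (r = 0.997), LAMP3 (r = 0.996) and PPP2R5A (r = 0.995). RBCK1, a subunit of the linear ubiquitin ligase, had mean log2 values of 11.19 in Caco-2 control, 11.61 in Caco-2 shRNA, 13.51 in HUG1N control and 12.56 in HUG1N shRNA arrays. LAMP3, a lysosomal membrane protein, had means of 2.21, 3.48, 8.56 and 5.42 in the same order. Both therefore share the order of groups seen in most metallothionein probe sets. They were chosen for this likeness among all probe sets with 1 gene symbol, so their values are a description, and the 8 points share the lines and the treatment.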

How the data were processed

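Total RNA of 8 samples was labelled with biotin and hybridised to 3′ expression arrays. The deposited files hold log2 values, 1 per probe set and array, which per the submitters' processing notes came from GCRMA; the version and options were not given in the sources used here. Such a summary compresses changes of dim probe sets: on each array between 32.2 and 32.8% of values were at the shared minimum of 2.08. Array medians ran from 4.73 to 4.98, and no further scaling was applied. The number of arrays limits the precision.

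Gene symbols come from the annotation of the platform. Of 22277 probe sets it gives 1 symbol for 19070, several for 1043 and none for 2164, and 19058 of the first kind matched a GRCh38.p14 gene by Entrez identifier. The groups come from the sample titles. limma 3.58.1 in R 4.3.3 fitted the means of the 4 groups to all 8 arrays for the 12758 probe sets over log2 4 in at least 2 arrays (lmFit, then eBayes; 4 residual and 2.10 prior degrees of freedom), with two-sided tests and Benjamini-Hochberg adjustment over all of them in each of 4 comparisons. All groups of a probe set share 1 estimate of spread, so a group at the lowest value makes the SE of the others too small, and a group scattered just above it makes it too large. A bound makes no allowance for the spread of the brighter group.

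Every probe set of the 9 genes is accounted for. From each list of other genes the text names up to 4 genes with the smallest p in either shRNA comparison, with CDH1, CDX1 and CDX2 added after their values were seen, and the 5 genes most like the mean metallothionein profile. The genes and the lists were chosen with earlier results of these data known. The fits were repeated with no filter, with quantile normalization or median centring, with an intensity trend, with each line alone, with 1 probe set per gene, with a floor at log2 4, with the replicate number as a block and without each array in turn.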

Additional observations from a re-analysis of the deposited data

Results flagged for a closer look

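The shRNA effect differed between HUG1N and Caco-2, by the test of the difference itself, in all 9 tested metallothionein probe sets. As the HUG1N effect minus the Caco-2 effect on the log2 scale, the values were -4.04 for MT1E 212859_x_at and -1.42 for MT1E 216336_x_at. MT1F gave -1.67 in 213629_x_at and -2.45 in 217165_x_at. MT1G 204745_x_at gave -2.78 and MT1H 206461_x_at -2.53. MT1X gave -4.20 in 204326_x_at and -3.31 in 208581_x_at, and MT2A 212185_x_at gave -2.49. All have limma adjusted p-values of 0.0127 or less. The 9 probe sets may share transcripts and are not independent, and 42.4% of all probe sets tested differed between the lines in this way.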

How the results depend on the processing

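Over 48 differences of the 12 tested probe sets in 4 comparisons, alternatives gave 728 values, of which 699 kept both direction and side of the threshold, 24 lost a call, 4 gained one and 1 reversed. The reversal was MT1F 213629_x_at in Caco-2 without Caco-2 shRNA replicate 1, to -0.18 (limma adjusted p = 0.319), and was no call in either fit; leaving out each array moved this difference between -0.18 and 0.65. The count of probe sets called in Caco-2, 5 of 12, was 3 with no filter, 3 (of 8 tested) with 1 probe set per gene, and 3 to 6 on leaving out each array. The no-filter fit tests more probe sets, and the other fewer. The count in HUG1N was 9 to 12 on leaving out each array and 8 to 12 otherwise, that of the difference between lines 9 and 6 to 9, and that of the controls 12 and 8 to 13, where the lowest values come from testing 1 probe set per gene. The cause of the other changes was not tested. In Caco-2, MT1E 212859_x_at was also lost with no filter (limma adjusted p = 0.0832), with values under log2 4 raised to 4 (1.04, limma adjusted p = 0.0757) and when Caco-2 was fitted alone (limma adjusted p = 0.0656), MT1F 217165_x_at with no filter (limma adjusted p = 0.0638), and MT2A passed with an intensity trend (limma adjusted p = 0.0473). The difference between lines of MT1F 213629_x_at was lost with no filter (limma adjusted p = 0.0613). Arrays of the same replicate number did not deviate together over all tested probe sets (correlations of -0.05 to 0.05 between groups). These values cannot tell what the number stands for, such as a shared culture or day. With the replicate block the counts were 5, 12, 9 and 12, as without it. Probe sets near the lowest value, such as MT1M and MT1E in Caco-2, are those whose changes these arrays measure least well.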
